A study of Hydra vulgaris with 12 samples.

Results

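The interval between 12 h and 6 h of head regeneration was examined in Hydra, a freshwater cnidarian polyp that regrows an amputated head. The 12 h libraries were set against the 6 h libraries, with 2 libraries at each time, so 4 of the 12 libraries of the series enter the comparison directly. All groups are animals of Hydra magnipapillata strain 105 (the labels give the organism as Hydra vulgaris), asexual, carrying a young bud and starved for 1 day. They were cut below the uppermost body region, R1, and tissue of the next regions, R2 and R3, was collected after regeneration. The labels call this tissue regenerating head. The groups used here are tissue taken at 12 h, 6 h, 48 h, 4 h, 2 h and 0 h after the cut. Each library is a pool of 50 to 100 animals, and the samples include no uninjured animals, so an effect of the cut cannot be told apart from one of the hours kept. The labels give no date of collection for any pool, so p-values measure the spread between these pools only. The tissue is the whole of R2 and R3 and not the wound tip alone. In such bulk tissue, fewer cells of a type and less RNA per cell cannot be told apart. Of 17353 transcripts in the deposited table, 14283 had an RPKM of at least 1 in at least 2 of the 12 libraries and were tested, and 3070 were not. RPKM is by definition the number of reads scaled to transcript length and to the reads mapped in the library. The deposited values show no steps of whole reads, and how reads were assigned to transcripts is not given. At the border of that rule, the second-highest value of a transcript over the 12 libraries was 1.001 RPKM just inside and 0.9998 RPKM just outside.

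In Hydra, a small group of cells at the tip of the head, the head organizer, instructs the surrounding tissue to form head structures, and Wnt ligands acting through beta-catenin are its best known signal. After decapitation the wound closes, an organizer is set up again in the cut upper end of the trunk, and tentacles and mouth follow later. Much of this takes place by remodelling of existing tissue, without a need for growth. In the table, 1 transcript carries a gene name, Wnt3, and a single identifier, the same one, matched the RefSeq gene list of a Hydra assembly that was used for names. The other transcripts are therefore given by their RefSeq identifiers, in which XM marks a predicted mRNA and XR a predicted non-coding RNA. No role is given for them. The labelled tissue could not be checked against cell type markers for the same reason.

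The 12 h libraries agreed less well with each other than the 6 h libraries did. Over 14283 transcripts, the log2 difference of replicate 1 and replicate 2 had an SD of 0.756 at 12 h, against 0.455 at 6 h, with the other times between 0.425 and 1.02. The difference of the 12 h mean and the 6 h mean had an SD of 0.651, and 90.6% of transcripts lay within 1 of no change. Means of 2 libraries vary less than single libraries, so this SD cannot be set directly against those of the replicates. Across these transcripts, which share the library's scaling, 12 h replicates 1 and 2 correlated with r = 0.946, and 6 h replicates 1 and 2 with r = 0.980. The 12 h replicates correlated better with the 4 h libraries, with r between 0.944 and 0.952, than with the 6 h libraries, with r between 0.937 and 0.944. 12 h replicate 1 lay closer to both 4 h libraries (0.948 and 0.952) than to its own partner, and 12 h replicate 2 to 1 of them (0.949). The counts of calls over all transcripts are therefore also given without single libraries where these move them by over 1.5 times.

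Between 6 h and 12 h, 141 transcripts rose and 206 fell. A transcript was called when it changed by at least 1 in size on the log2(RPKM + 1) scale, with a limma p under 0.05 after Benjamini-Hochberg adjustment. The share called was 0.987% of the 14283 tested transcripts for rises, 1.44% for falls and 2.43% for both. In all 141 rises both 12 h libraries lay above both 6 h libraries, a separation that 23.7% of all tested transcripts showed. In all 206 falls both 12 h libraries lay below both 6 h libraries, as in 29.2% of all tested. The median change was 1.37 among the rises and −1.42 among the falls, against −0.04 over all tested transcripts. Changes of 3 or more in size were found in 9 rises and 9 falls, while 118 rises and 172 falls lay between 1 and 2. A further 991 transcripts had a difference of at least 1 and did not pass the test. Of all tested, 2692 (18.8%) had an unadjusted p below 0.05. Median-ratio scaling of the libraries gave 155 rises and 189 falls, and quantile normalization gave 166 and 178.

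The spread used in the test was estimated over all 6 times. A fit of the 4 libraries alone called 1 transcript, XM_004207219.1, with 2930 at an unadjusted p below 0.05. Leaving out 1 library of 6 h took the total of 347 to 60 (replicate 1) or 52 (replicate 2). Leaving out 1 of 12 h gave 249 (replicate 1) or 181 (replicate 2), of which 153 and 118 were among the 347. Leaving out 1 of 4 h gave 191 or 192. With 48 h replicate 1, replicate 2 or both left out, 531, 527 and 530 were called, and the last of these fits called each of the 347.

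**Figure D1:**
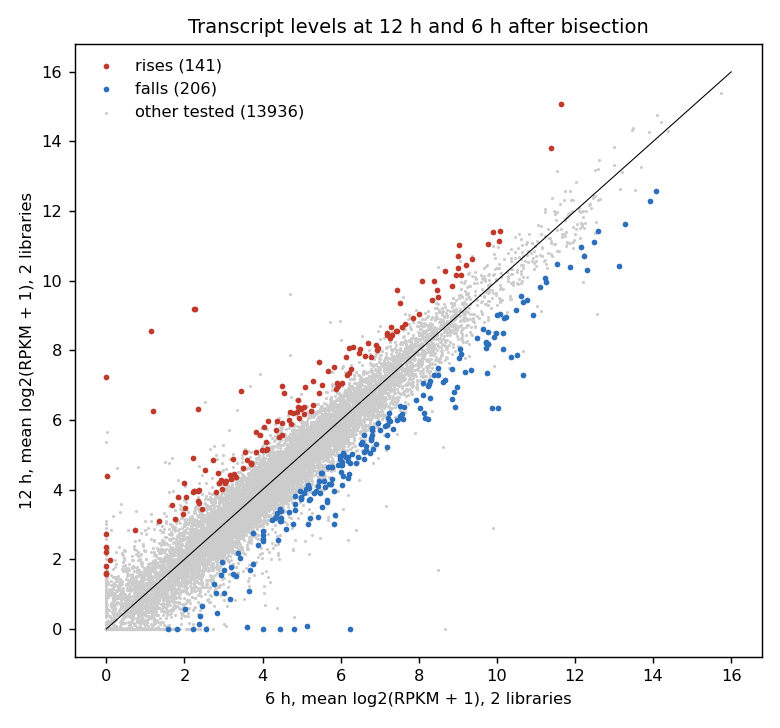
Each point is a transcript, placed by its mean log2(RPKM + 1) in the 2 libraries of 12 h (y axis) and of 6 h (x axis). The 141 rises (red) lie above the line of equal level and the 206 falls (blue) below it, among the other tested transcripts (grey). A few called transcripts lie on an axis, near 0 RPKM at 1 of the times.

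The largest rises were of transcripts that were abundant at most times and nearly missing at 6 h. XM_004208578.1 had 316 and 454 RPKM in the 12 h libraries, against 1.08 and 1.32 RPKM in the 6 h libraries. It had stood at 1545 and 1528 RPKM at 0 h, 1855 and 1803 at 2 h, and 597 and 977 at 4 h, and reached 1150.3 and 903 RPKM at 48 h. The level was thus lowest by far in both 6 h libraries, and the 12 h libraries still lay below those of 0 h, 2 h, 4 h and 48 h. The change at this step was 7.43 on the log2 scale (SE 0.25, limma adjusted p = 3.27e-06).

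XM_004207219.1 had 155 and 147 RPKM at 12 h, against less than 0.001 RPKM in both 6 h libraries. At earlier times it had 221 and 228 RPKM at 0 h, 279.6 and 325 at 2 h, then 4.00 and 38.3 at 4 h, and at 48 h it had 276 and 251. Its low point at 6 h followed a lower level at 4 h, where the 2 libraries differed widely. The change of 7.25 (SE 0.71, limma adjusted p = 0.00179) is on the log2(RPKM + 1) scale and, with 6 h at the floor, is not a fold. It was 10.55 with a pseudocount of 0.1 and 4.96 with 5.

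XM_002159383.2, named because it turned most at 6 h along with XM_004208578.1, had 504 and 665 RPKM at 12 h, against 2.28 and 5.80 RPKM at 6 h (log2 change 6.94, SE 0.29, limma adjusted p = 1.38e-05). In all other libraries it lay between 549 and 1121 RPKM, so the 6 h libraries alone were low. A further transcript, XM_004208579.1, picked out after its values were seen, stayed within 10.5% of it in every one of the 12 libraries on the RPKM + 1 scale. How reads were split between similar transcripts is not stated, so the values of both are uncertain. They were the only calls with another transcript within 0.25 on the log2 scale in all libraries. Of the tested transcripts, XM_002159383.2 also had the pattern closest to that of XM_004208578.1, with a largest difference of 1.55 on that scale. Whether XM_004208578.1 shares reads with these transcripts was not tested.

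Among transcripts that held at least 5 RPKM in all 12 libraries, 103 of 8868 rose and 159 fell. The rises with the lowest p in this group were of XM_002160828.2 and XR_181933.1. XM_002160828.2 had 2208 and 2009 RPKM at 12 h, against 495 and 556 RPKM at 6 h, so the 12 h mean was 4.01 times the 6 h mean (log2 change 2.00, SE 0.13, limma adjusted p = 2.18e-04). Its next highest libraries were those of 48 h, at 1077 and 977 RPKM, and at no other time did a library exceed 828 RPKM. The 12 h libraries were the highest of the series for this transcript.

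XR_181933.1, a predicted non-coding RNA, had the largest gain in RPKM of all transcripts, with 37364 and 31842 RPKM at 12 h, against 3385 and 2996 RPKM at 6 h. The 12 h mean was 10.8 times the 6 h mean (log2 change 3.44, SE 0.23, limma adjusted p = 2.18e-04), and its rank among all transcripts was 2 at 12 h, against 82 at 6 h. It had 5522 and 7473 RPKM at 0 h, 11905 and 14081 at 2 h, 9374 and 12719.8 at 4 h, then 26357 and 32607 at 48 h. The 6 h libraries were the lowest of the 12. The next largest gain was that of XM_002161412.2, with 15112 and 13640.4 RPKM at 12 h, against 2767 and 2620.0 RPKM at 6 h (log2 change 2.41, SE 0.17, limma adjusted p = 3.45e-04). This transcript also had its 2 lowest libraries at 6 h and was higher still at 48 h, at 21254 and 27528 RPKM. Of all transcripts, XM_002161412.2 had the pattern closest to that of XR_181933.1, with a largest difference of 1.31 on the log2 scale over the 12 libraries.

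XM_004213166.1 had 80.0 and 71.1 RPKM at 12 h, against 4.32 RPKM and less than 0.001 RPKM at 6 h. At 0 h, 2 h and 48 h no library reached 0.001 RPKM, and the 4 h libraries stood at 0.0288 and 4.51 RPKM, so the 12 h libraries stood alone. The log2 change was 5.05 (SE 0.85, limma adjusted p = 0.0183). A fit of the 4 libraries of 12 h and 6 h alone gave a limma adjusted p of 0.117, above the threshold. The limma adjusted p, 0.00109 to 0.119 over 23 alternatives, missed the threshold with 6 h replicate 2 left out (0.119), with either 12 h library left out (0.0711) and with a pseudocount of 0.1 (0.0991).

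The largest falls were of transcripts that came close to 0 RPKM at 12 h. XM_004206625.1 lay below 0.001 RPKM in both 12 h libraries, against 93.6 and 60.3 RPKM at 6 h. It had 208 and 57.1 RPKM at 0 h, 266 and 144 at 2 h, 42.2 and 39.5 at 4 h, and 189 and 456 at 48 h, so the 12 h libraries were low and the other 10 were not. The change on the log2(RPKM + 1) scale was −6.25 (SE 0.60, limma adjusted p = 0.00163). Its size depends on the pseudocount, with −9.55 at 0.1 and −4.00 at 5. XM_004208699.1, named for its turn at 12 h, had the same course. It is listed at 0 in both 12 h libraries, against 31.0 and 23.1 RPKM at 6 h, and held between 15.8 and 49.9 RPKM in the other 8 libraries (change −4.80, SE 0.48, limma adjusted p = 0.00205, with −8.07 and −2.67 at those pseudocounts).

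XM_004210489.1 had 0.0905 and 0.0277 RPKM at 12 h, against 28.0 and 42.1 RPKM at 6 h (log2 change −5.06, SE 0.66, limma adjusted p = 0.00670). It had been near 0 at 0 h (0.0421 and 0.0112 RPKM), stood at 0.612 and 8.00 RPKM at 2 h and 18.8 and 12.6 RPKM at 4 h, and was near 0 again at 48 h (0.00324 and 0.00218 RPKM). The 6 h libraries were thus its 2 highest. The limma adjusted p, 5.72e-04 to 0.0737 over 23 alternatives, missed the threshold with either 6 h library left out (0.0543 and 0.0737). At pseudocounts of 0.1 and 5 the change was −7.79 and −2.96. In a fit of the 4 libraries of 12 h and 6 h alone, the limma adjusted p was 0.0565, also above the threshold.

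Of the transcripts above 5 RPKM throughout, XM_004208077.1 and XM_002158688.2 fell with the lowest p. XM_004208077.1 had 1247 and 1514 RPKM at 12 h, against 9105 and 8679.6 RPKM at 6 h, and the 12 h mean was 0.155 of the 6 h mean (log2 change −2.69, SE 0.16, limma adjusted p = 1.73e-04). It had 1544 and 2054 RPKM at 0 h, 1508 and 1542 at 2 h, 3999.7 and 3667 at 4 h, and 522 and 507 at 48 h, so it was highest in both 6 h libraries. XM_002158688.2 had 246 and 220.1 RPKM at 12 h, against 1419 and 1522 RPKM at 6 h (log2 change −2.65, SE 0.18, limma adjusted p = 2.18e-04). Its levels at 0 h, 2 h and 48 h, between 85.1 and 132 RPKM, lay below those of 12 h, and its 4 h levels, 366 and 457 RPKM, lay between those of 12 h and 6 h.

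The predicted non-coding RNA with the largest fall, XR_181961.1, had 88.4 and 72.4 RPKM at 12 h, against 856 and 1037 RPKM at 6 h (log2 change −3.54, SE 0.27, limma adjusted p = 5.77e-04). Its 12 h mean was 0.0849 of the 6 h mean. The 12 h values lay within the range of 52.5 to 92.7 RPKM seen at 0 h, 2 h and 48 h, and the 4 h libraries, at 184 and 160.5 RPKM, lay above it. XR_181831.1 had the largest loss in RPKM of all transcripts, with 6269 and 6069.7 RPKM at 12 h, against 14210.3 and 20994 RPKM at 6 h (log2 change −1.49, SE 0.22, limma adjusted p = 0.0110). At 0 h it had stood at 2282 and 2199 RPKM, and by 4 h at 17825 and 18049 RPKM. In a fit of the 4 libraries of 12 h and 6 h alone, the limma adjusted p for XR_181831.1 was 0.115, above the threshold. Its limma adjusted p, 0.00611 to 0.115 over 23 alternatives, missed the threshold with replicate 2 of 6 h (0.0892) or of 12 h (0.0560) left out.

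The most abundant transcript at both times, XM_002168126.2, had 44764 and 41946 RPKM at 12 h, against 50120.2 and 59271 RPKM at 6 h. The libraries of the 2 times did not overlap, but the change of −0.33 (SE 0.34) did not pass, with a limma adjusted p of 0.664. It had 3503 and 3942 RPKM at 0 h, 3362 and 6889.7 at 2 h, 50207 and 49669 at 4 h, and 5075 and 8526 at 48 h, so its high level spanned 4 h, 6 h and 12 h. XM_002158972.2 was also held across this step, with 275 and 141 RPKM at 12 h, against 248 and 253 RPKM at 6 h (log2 change −0.34, SE 0.55, limma adjusted p = 0.805). It was below 4 RPKM in every library of the other 4 times.

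**Figure D2:**
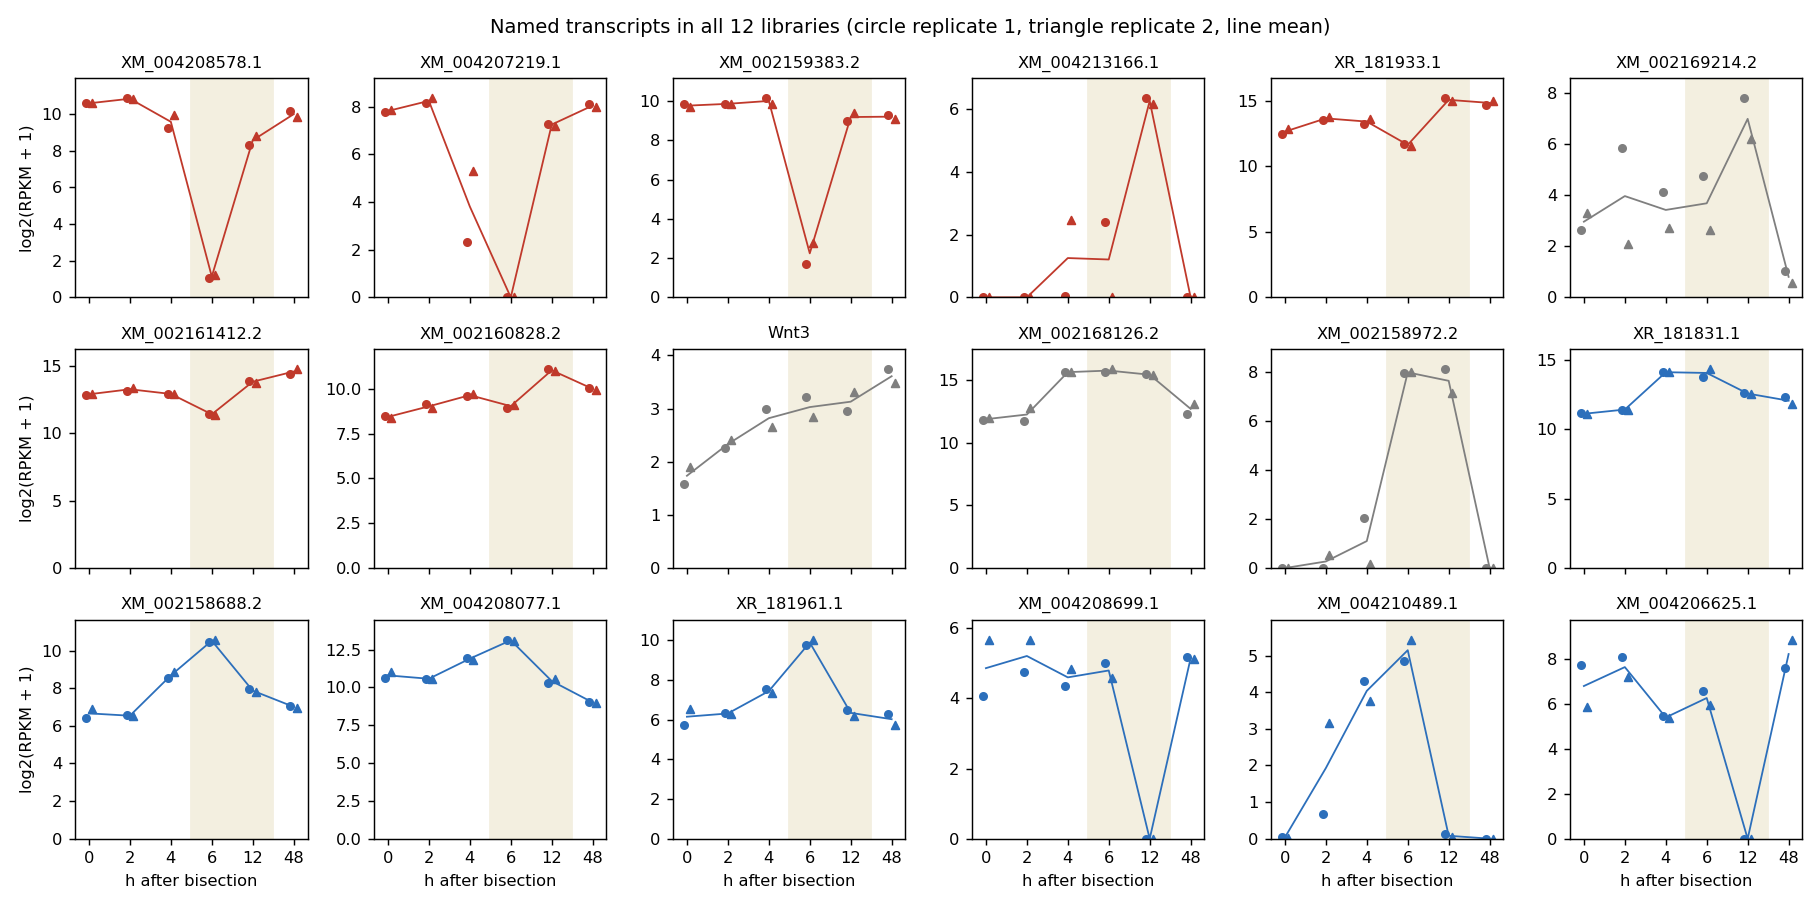
Level of each named transcript, as log2(RPKM + 1), in all 12 libraries against the hours after bisection (6 evenly spaced times; the band marks 6 h and 12 h). Red marks a rise, blue a fall and grey neither; panels run row by row from the largest rise (XM_004208578.1, 7.43) to the largest fall (XM_004206625.1, −6.25), and several rises show their low point at 6 h.

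The summed RPKM of the called transcripts follows from their choice and is a description. The 141 rises made up 6.43% and 5.88% of the RPKM total at 12 h, against 1.40% and 1.43% at 6 h. Of their summed gain, 61.6% came from XR_181933.1 and XM_002161412.2. The 206 falls made up 3.38% and 3.12% at 12 h, against 8.90% and 9.88% at 6 h, and their loss was spread wider, with 58.8% of it in 10 transcripts. The 10 leading transcripts took 16.6% and 15.9% of the RPKM total at 12 h, against 12.9% and 13.4% at 6 h. Among the 20 leading transcripts were 2 rises in each 12 h library and none in the 6 h libraries. Falls among them numbered 1 and 0 in the 12 h libraries, against 4 and 5 in the 6 h libraries. These counts follow from the choice too. Of the 224 tested transcripts with a mean of 1000 RPKM or more over the 12 libraries, 4.46% rose and 8.04% fell.

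Calls were more frequent among abundant transcripts. With a mean over the 12 libraries below 5 RPKM, 12 of 2866 transcripts rose and 10 fell (0.768% called). With a mean of 1000 RPKM or more, 10 of 224 rose and 18 fell (12.5% called). The shares between these were 1.59% from 5 to 20 RPKM, 2.45% from 20 to 100 RPKM and 6.17% from 100 to 1000 RPKM. The pseudocount of 1 shrinks changes of weak transcripts, so these shares do not compare true changes between levels. Of 330 predicted non-coding RNAs tested, 10 rose and 10 fell, or 6.06%, beside 131 rises and 196 falls among 13952 predicted mRNAs, or 2.34%. The non-coding transcripts included more of high level. Within 1000 RPKM or more, 5 of 25 non-coding transcripts were called (3 rises and 2 falls), beside 23 of 199 predicted mRNAs (7 rises and 16 falls). Within 100 to 1000 RPKM, the numbers were 9 of 100 and 95 of 1585. Within 20 to 100 RPKM, 2 of 112 non-coding transcripts rose and 4 fell (5.36% called), beside 2.38% of 4739 predicted mRNAs. Below 20 RPKM, none of 93 non-coding transcripts was called. The share of predicted mRNAs called was 0.777% below 5 RPKM and 1.61% from 5 to 20 RPKM. At such shares few calls would be found among 93, so this is not read as a difference.

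**Figure D3:**
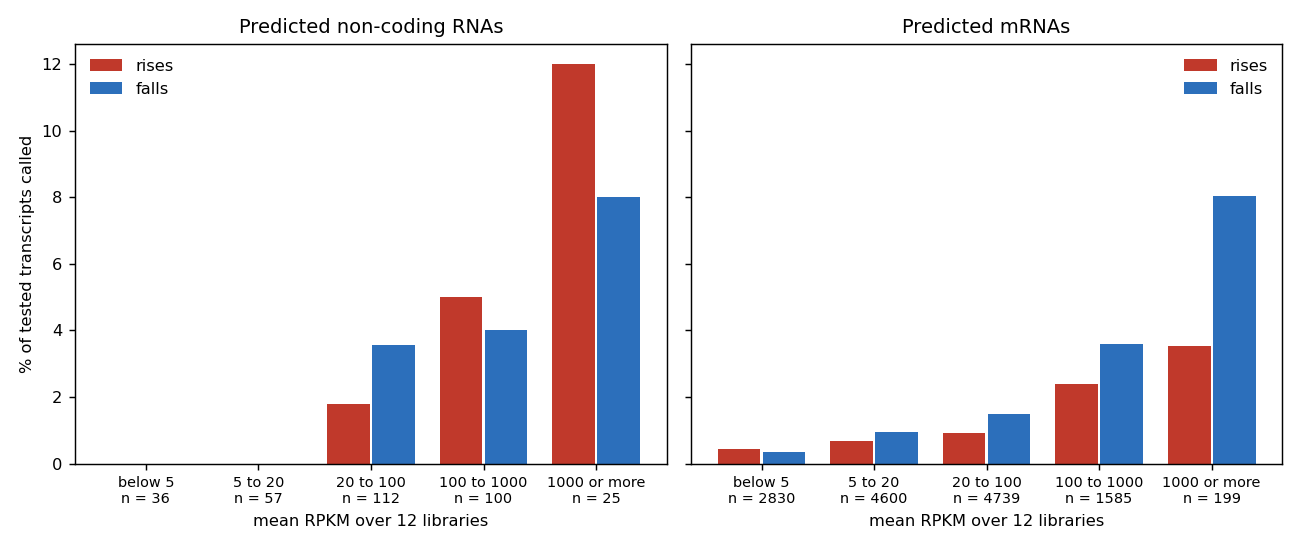
Percentage of tested transcripts that rose (red) or fell (blue) between 6 h and 12 h, by mean RPKM over the 12 libraries, for predicted non-coding RNAs (left) and predicted mRNAs (right). Bars grow with level in both classes, to 12.0% rises and 8.00% falls among 25 non-coding transcripts of 1000 RPKM or more.

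Few transcripts switched between near 0 and a clear level. From below 0.001 RPKM in both 6 h libraries, 9 transcripts reached at least 1 RPKM in both 12 h libraries, and 4 of them were called as rises. In the other direction, both 12 h libraries lay below 0.001 RPKM and both 6 h libraries at 1 RPKM or more for 39 transcripts, and 8 of them were called as falls. With limits of 0.1 and 5 RPKM in place of these, the numbers were 5 and 8. Neither the depth of the libraries nor the way reads were assigned to transcripts is known, so such low values do not show that a transcript was absent.

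The called transcripts were next followed through the other times. The median level of the 141 rises was 41.5 and 39.4 RPKM in the 0 h libraries, 40.3 RPKM in both 2 h libraries, 39.8 and 45.0 at 4 h, 25.1 and 24.2 at 6 h, 73.3 and 85.3 at 12 h, then 71.3 and 86.6 at 48 h. The library medians of 48 h thus lay near those of 12 h. Per transcript, the median change from 0 h was 0.96 at 12 h and 0.46 at 48 h on the log2 scale. The median of the 206 falls was 40.5 and 44.2 RPKM at 0 h, 42.9 and 40.2 at 2 h, 56.4 and 53.4 at 4 h, 80.6 and 79.8 at 6 h, 31.1 and 29.1 at 12 h, then 30.2 and 29.3 at 48 h. That of all tested transcripts was lower at the later times too, with 20.7 and 20.3 RPKM at 0 h, 16.9 and 16.4 at 6 h, 15.9 and 16.8 at 12 h, then 15.7 and 15.0 at 48 h. The values at 6 h and 12 h chose these transcripts, so their contrast is a description. Those at the other 4 times entered the choice only through the filter and the spread, whose trend follows the mean level over all 12 libraries.

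**Figure D4:**
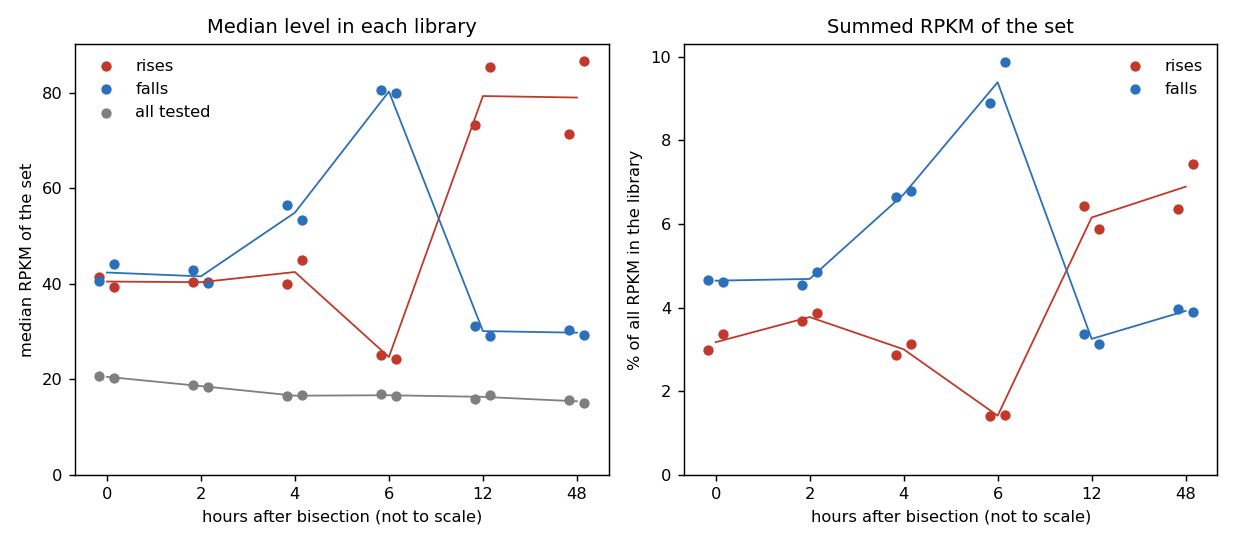
Median RPKM in each library (left) and summed RPKM as a percentage of the library total (right) for the 141 rises (red), the 206 falls (blue) and all tested transcripts (grey, left only), with lines through the mean of the 2 libraries of each time. The rises dip and the falls peak at 6 h, and the sets cross between 6 h and 12 h; at 48 h the rises sit at 71.3 and 86.6 RPKM and the falls at 30.2 and 29.3 RPKM.

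For most of the called transcripts, 6 h was the extreme time of the series. Of the 206 falls, 150 had their highest mean at 6 h, or 72.8%, beside 10.8% of all tested transcripts. Of the 141 rises, 79 had their lowest mean at 6 h, or 56.0%, beside 14.5% of all tested, and 68 had their highest at 12 h, or 48.2%, beside 10.9%. Of the falls, 79 had their lowest mean at 12 h (38.3%, beside 19.9% of all tested) and 95 at 48 h (46.1%, beside 34.4%). With median-ratio scaling this order turned, with 73 at 12 h and 67 at 48 h. With the same scaling, 158 falls had their highest mean and 69 rises their lowest at 6 h. A choice by the contrast of 12 h and 6 h favours transcripts that are extreme at 1 of these times, so the shares describe the calls and support nothing further.

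The called transcripts were also placed against their 0 h level. Of the 141 rises, 36 lay at least 1 below 0 h on the log2 scale at 6 h and within 1 of it at 12 h, and 49 lay within 1 at 6 h and at least 1 above at 12 h. Of the 206 falls, 78 lay at least 1 above 0 h at 6 h and within 1 of it at 12 h, and 57 lay within 1 at 6 h and at least 1 below at 12 h. Over all 14283 transcripts, those numbers were 596, 476, 422 and 1269. The numbers for the rises and falls rest on the 6 h and 12 h values that chose them, so they are a description. The median transcript lay at −0.30 at 6 h and −0.32 at 12 h relative to 0 h.

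**Figure D5:**
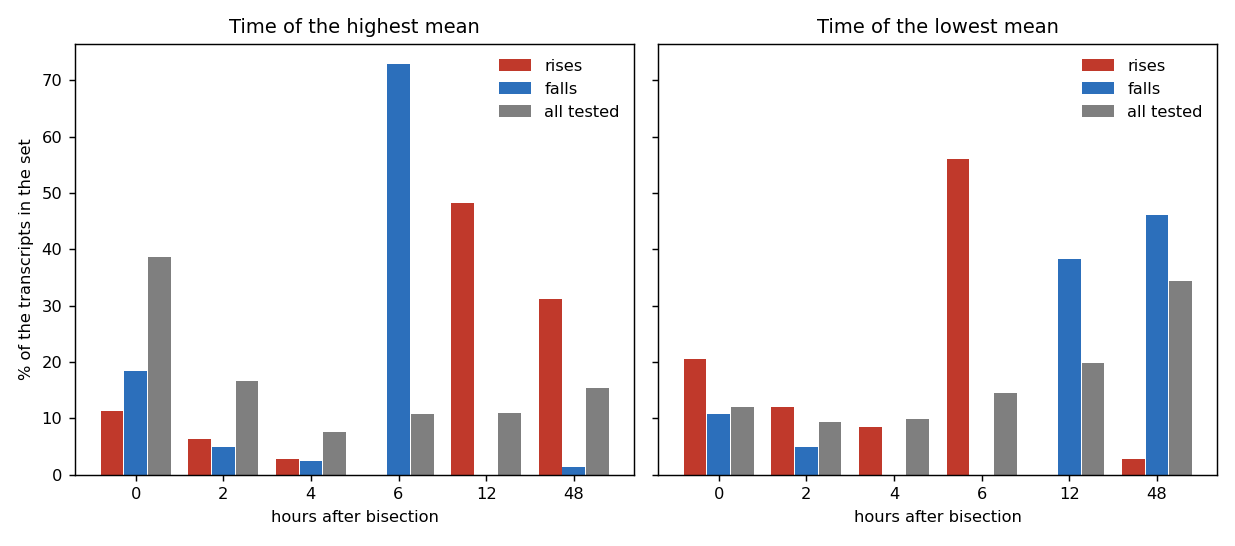
Percentage of transcripts whose mean log2(RPKM + 1) was highest (left) or lowest (right) at each time, for the 141 rises (red), the 206 falls (blue) and all 14283 tested transcripts (grey). The falls have their highest mean at 6 h in 72.8%, and the rises their lowest at 6 h in 56.0%.

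Neither of the next comparisons uses a 12 h or 6 h library, although the filter and the estimate of the spread are shared by all comparisons. The 2 comparisons share the 4 h libraries with each other, so a high or low 4 h value enters both, with opposite sign. At 4 h against 0 h, where 1709 transcripts were called, 23 of the 141 rises were called higher and 19 lower, beside 4.55% higher and 7.41% lower among all tested. Of the 206 falls, 47 were higher at 4 h and 9 lower. The falls were therefore called higher at 4 h in 22.8%, and lower in 4.37%. At 48 h against 4 h, where 11.2% were called in all, 47 of the rises were higher and 4 lower (33.3% and 2.84%), beside 3.82% and 7.38% of all tested. Of the falls, 4 were higher and 85 lower (1.94% and 41.3%). The median change at 48 h against 4 h was 0.60 for the rises, −0.89 for the falls and −0.12 for all tested. At 0 h the median of the mean RPKM was 43.6 for the rises and 40.9 for the falls, against 20.6 for all tested. Shares matched for level were not computed.

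Both counts were recomputed without single libraries. At 4 h against 0 h, 944 of all transcripts were called with 0 h replicate 2 left out, among them 38 falls that were higher, beside 2.79% of all tested. With 4 h replicate 1 or replicate 2 left out, 1003 and 840 were called, among them 39 and 35 such falls, beside 2.95% and 2.65% of all tested. Median-ratio scaling moved the share of higher calls over all transcripts to 73.4%, where 650 of 1709 were higher as deposited, and gave 61 falls higher and 2 lower, and 32 rises higher and 9 lower, beside 6.85% higher and 2.49% lower among all tested. At 48 h against 4 h, 1599 were called, and 638 or 959 with replicate 1 or replicate 2 of 4 h left out. The falls called lower were then 65 and 73, beside 3.05% and 4.41% of all tested, and the rises called higher 29 and 37, beside 1.41% and 2.30%. Leaving out 48 h replicate 1 gave 2811 calls, with 89 falls lower and 50 rises higher, beside 13.7% lower and 6.01% higher among all tested. Quantile normalization gave 705 higher and 828 lower over all transcripts, where 545 and 1054 were found as deposited. A fit of the 4 libraries of 48 h and 4 h alone called 34 transcripts, 6 higher and 28 lower (0.042% and 0.196% of all tested). Of these, 2 were rises, called higher, and 8 were falls, called lower.

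The 12 h libraries were also set against those of 4 h, which gave 45 rises and 63 falls (0.315% and 0.441% of all tested, 0.756% together). The 2 comparisons share the 12 h libraries. The 141 transcripts called as rises against 6 h had a median change of 0.99 against 4 h, and the 206 falls one of −0.92, beside −0.06 for all tested. With replicate 1 or replicate 2 of a time left out, the total of 108 was 37 and 37 for 0 h, 54 and 54 for 2 h, 4 and 5 for 4 h, 32 and 31 for 6 h, 57 and 27 for 12 h, and 261 and 265 for 48 h. It was 22 with the replicate block, 36 without the variance trend and 163 with library weights. In a fit of the 4 libraries of these times limma called none, with 2515 transcripts at an unadjusted p below 0.05.

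Whether this step differed from the one before it was tested as the change between 6 h and 12 h minus the change between 4 h and 6 h. The steps compared here and below span unequal hours, and no change was divided by its hours. The test called 155 transcripts, or 1.09%, of which 59 (0.413%) turned upward at 6 h and 96 (0.672%) downward. At an unadjusted p below 0.05 stood 1594 (11.2%). XM_004208578.1 turned upward most, by 15.87 on the log2 scale (SE 0.43, limma adjusted p = 4.98e-07), followed by XM_002159383.2, by 14.70 (SE 0.51, limma adjusted p = 2.40e-06). XM_002158972.2 had the largest downward turn, −7.22 (SE 0.95, limma adjusted p = 0.0122). Its 4 h levels were 3.11 and 0.117 RPKM, so it had risen by 6 h, and its change from there to 12 h was not called. With replicate 1 or replicate 2 of a time left out, the total was 33 and 48 for 4 h, 25 and 14 for 6 h, 93 and 85 for 12 h, and 312 and 309 for 48 h. Library weights gave 606 calls, no variance trend 67 and the replicate block 100. A fit of only the 6 libraries of 12 h, 6 h and 4 h called 136.

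The difference from the step after it, the change between 6 h and 12 h minus that between 12 h and 48 h, called 360 transcripts, or 2.52%. Of these, 222 (1.55%) had a positive and 138 (0.966%) a negative difference. With 12 h replicate 1 left out the balance turned, to 59 positive and 79 negative. At an unadjusted p below 0.05 stood 2472 (17.3%). The most negative was that of XM_004206625.1, −14.45 (SE 1.03, limma adjusted p = 0.00101), then XM_004208699.1, −9.94 (SE 0.83, limma adjusted p = 0.00161). Both had been near 0 at 12 h alone. The most positive were XM_004213166.1, 11.31 (SE 1.47, limma adjusted p = 0.00936), and XM_002169214.2, 9.49 (SE 2.01, limma adjusted p = 0.0451). XM_002169214.2 had 221 and 71.9 RPKM at 12 h, against 25.9 and 5.14 RPKM at 6 h, and 1.05 and 0.486 RPKM at 48 h. At earlier times it had 5.24 and 8.76 RPKM at 0 h, 56.6 and 3.24 at 2 h, and 16.4 and 5.62 at 4 h. Its change between 6 h and 12 h, 3.31 (SE 1.16), did not pass by itself, with a limma adjusted p of 0.164. With replicate 1 or replicate 2 left out, the total was 158 and 158 for 4 h, 86 and 78 for 6 h, and 138 and 100 for 12 h. It was 1405 with 48 h replicate 1 left out, 212 without the variance trend and 60 with library weights. The fit of the 6 libraries of these times alone called 24.

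Wnt3 had 6.71 and 8.93 RPKM in the 12 h libraries, against 8.30 and 6.15 RPKM in the 6 h libraries. At the other times this ligand of the head organizer had 1.98 and 2.72 RPKM at 0 h, 3.78 and 4.30 at 2 h, 6.91 and 5.29 at 4 h, then 12.4 and 10.1 at 48 h. The 12 h and 6 h libraries overlapped, and the change of 0.10 (SE 0.27) did not pass, with a limma adjusted p of 0.897. It took the sign of a fall, −0.088 and −0.082, without 6 h replicate 2 or 12 h replicate 2. Its 12 h mean had rank 9845 among the 17353 transcripts of the table. Of the 10 lists of pathway genes and cell type markers, the Wnt signalling and head organizer lists had 1 member each in the table, Wnt3, and the others none, so no list could be described.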

How the data were processed

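Poly(A) RNA of 12 pools was sequenced as strand-specific 50 bp single-end libraries, per the labels' protocols. The submitters' processing notes name Bowtie 0.12.8. Filters, read assignment and build: not given in the sources used here. Each library has 1 column of RPKM values that the authors deposited; the unit is taken from the name of their table and fits its values, which are not whole. RPKM totals were between 1330541 and 1535758. No steps of whole reads were seen, and 1489 to 1968 values per library lay above 0 but below 0.001, so depth is unknown and no counting interval is given.

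Values were analysed as log2(RPKM + 1) with limma 3.58.1 (R 4.3.3). The fit had a mean per time over all 12 libraries, a variance trend, 6 residual degrees of freedom and Benjamini-Hochberg adjustment over 14283 transcripts. Tests were two-sided, and SE is limma's. An exact permutation test of 2 against 2 cannot go below p = 0.333, so none was run. The procedure was tested on simulated data.

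Named transcripts are Wnt3; the 2 largest rises and falls in the step and in each difference between steps; the 2 of lowest p in each direction above 5 RPKM throughout; the 2 largest gains and losses in RPKM; and the non-coding RNA that rose and that fell most. Members, lists and the naming rule were chosen with earlier results of these data known. Alternatives were 2 pseudocounts, 2 filters, 2 scalings, no trend, library weights, replicate block, subsets of libraries and no fold minimum.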

Additional observations from a re-analysis of the deposited data

Results flagged for a closer look

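The results below stand apart because a test of the difference found that the change between 6 h and 12 h was not that of the neighbouring step. Against the step between 4 h and 6 h, 155 transcripts differed, with XM_004208578.1 at 15.87 and XM_002159383.2 at 14.70 on the log2 scale, both low at 6 h in 2 of 2 libraries. On the negative side stood XM_002158972.2 at −7.22 and XM_004206625.1 at −7.11. Against the step between 12 h and 48 h, 360 transcripts differed, with XM_004213166.1 at 11.31 and XM_002169214.2 at 9.49, both highest in the 2 libraries of 12 h. For XM_002169214.2, 2 h replicate 1 stood at 56.6 RPKM, beside 71.9 RPKM in 12 h replicate 2. XM_004206625.1 at −14.45 and XM_004208699.1 at −9.94 were near 0 RPKM in the 2 libraries of 12 h. A difference between 2 steps counts the middle time with a weight of 2, so it is sensitive to the libraries of that time. It compares whole changes over unequal hours and not changes per hour.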

How the results depend on the processing

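Of 142 recomputed counts, 82 stayed within 1.5 times the reported count and 60 did not. The 347 calls at 12 h against 6 h were 530 in a fit without both 48 h libraries, 1 in a fit of the libraries of the times compared alone, 534 with no fold minimum, and 52 to 531 without single libraries. The 108 calls at 12 h against 4 h were 70 without a filter, 36 without a variance trend, 163 with library weights, 258 without both 48 h libraries, 0 in limma on the times compared alone (2515 at an unadjusted p below 0.05) and 4 to 265 without single libraries. The 155 turns at 6 h were 67 without a trend, 606 with weights, 311 without both 48 h libraries and 14 to 312 without single libraries. The 360 turns at 12 h were 212 without a trend, 60 with weights, 24 on the times compared alone and 78 to 1405 without single libraries. The 1709 calls at 4 h against 0 h were 3137 with no fold minimum and 840 to 2024 without single libraries. The 1599 at 48 h against 4 h were 902 with weights, 34 on the times compared alone, 2539 with no fold minimum and 638 to 2811 without single libraries. The cause was not tested, other than that fewer libraries or a lower minimum enter some fits by construction. Of 414 values of the named transcripts, 390 kept their call and did not change sign (among them XM_002168126.2, at 0 with quantile normalization), 21 kept their direction and lost it, and 3 changed sign, none of them called: Wnt3 at −0.088 and −0.082 (range without single libraries −0.088 to 0.29) and XM_002158972.2 at 0.14 without 12 h replicate 2 (range −0.82 to 0.14).

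The replicate differences of 2 times correlated across transcripts with r = −0.034 for 12 h and 6 h, and from −0.098 (48 h and 4 h) to 0.234 (6 h and 4 h) over all pairs of times, so not every pair passed 0.1, and the labels tie no number to a shared batch. The numbers were not taken to pair the samples. With the replicate block the count at 12 h against 6 h was 300, against 4 h it was 22, at the turn at 6 h 100 and at the turn at 12 h 252. Depth and the assignment of reads to transcripts are unknown, which limits statements on values near 0.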

Other observations

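The largest changes that did not pass the test were of XM_004208315.1 and XM_004213212.1, picked out after their values were seen. XM_004208315.1 had 44.0 and 55.2 RPKM at 12 h, against less than 0.01 RPKM in both 6 h libraries (log2 change 5.65, SE 1.43, limma adjusted p = 0.0687). Its 4 h libraries stood below 0.001 RPKM and at 12.5 RPKM, and its 2 h libraries at 25.3 and 0.0296 RPKM. XM_004213212.1 lay below 0.01 RPKM in both 12 h libraries, against 758 and 217 RPKM at 6 h (log2 change −8.66, SE 2.27, limma adjusted p = 0.0749). Its 4 h libraries stood at 112 RPKM and below 0.001 RPKM, and its 48 h libraries at 2.42 and 308 RPKM. In both, the libraries of a time differed widely.

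Of the 3070 transcripts outside the rule, 206 had 1 RPKM or more in a single library of 6 h or 12 h. They were not tested.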
